A study of Mus musculus with 16 samples.

Results

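Microglia are the resident macrophages of the brain, and 31 genes used as their markers were followed in mouse hippocampus. The members were taken by gene name from a given list, and each was read through the array probes whose RefSeq transcript belongs to it. Of the 31 genes, 30 had a named probe and 29 could be tested, through 40 of their 43 probes, out of 13459 named genes tested in all. Cd68, a lysosomal glycoprotein, was not analysed here. The single probe of Spi1, the gene of the transcription factor PU.1, was well above background on 2 of 16 arrays and was left out.

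RNA came from the hippocampus of male senescence-accelerated mice of the strains SAM/P-8 and SAM/R-1, both selected from an AKR/J pool, so that all groups share that background. Feeding started at 8 weeks of age and lasted 8 weeks, either on the rodent diet CE-2 alone (control) or on CE-2 with 0.1% CCH, coral calcium hydride. SAM/P-8 is known as a model of early memory decline, and SAM/R-1 as its companion with normal ageing. Each of the 4 groups (SAM/P-8 control, SAM/P-8 CCH, SAM/R-1 control and SAM/R-1 CCH) had 4 one-colour arrays. The labels do not say whether replicates came from separate mice, and a p-value here reflects no more than the spread of these samples, which may be technical. Each slide held the 4 arrays of 1 group, and effects of slide and of group cannot be told apart.

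Microglia depend on the growth factor receptor CSF1R, sense neurons through CX3CR1 and nucleotides through P2RY12, and pass many of their signals through the adaptor TYROBP, which carries an activation motif called ITAM. They tag and clear synapses with complement C1q, which in brain is made largely by these cells, and meet microbial products through Toll-like receptors. Several of the 31 genes, such as Lyz2, Itgam and Ptprc, are also used by macrophages of the brain's borders and by blood leukocytes.

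Between 66.7% and 76.8% of the non-control spots of an array were well above background. The group means were 68.4% in SAM/P-8 control, 71.1% in SAM/P-8 CCH, 71.8% in SAM/R-1 control and 73.9% in SAM/R-1 CCH. On each diet the mean was thus lower in SAM/P-8, and its part in the differences of dim genes was not tested. Levels are log2 processed signal relative to the 75th percentile of the same array, so a level of 0 is as bright as that percentile, and levels of different probes are not compared. A gene with several probes was read by its brightest. Of the 29 tested members, 28 were well above background on all 16 arrays, among them the genes that best separate microglia from other macrophages, Tmem119, P2ry12 and Siglech. The 14 neuron markers were likewise well above background on every array. One array stood apart: SAM/P-8 CCH replicate 4 had a mean score of 3.72 for 10 striatal markers (log2, relative to the mean of each gene over all arrays), against -0.73 to 0.30 on the other 15 arrays. A set of 9 choroid plexus markers was low on 5 arrays, with scores from -2.95 to -1.25 against 0.18 to 1.73 on the other 11. The score of 3 red cell markers was 1.93 and 2.66 on SAM/P-8 control replicates 1 and 2 and at most 0.30 elsewhere.

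Promoter sequence is shown for 4 members because the myeloid factor PU.1 is known to bind purine-rich sites near many of these genes, and because these members stand for a higher call, a lower call and a gene that was not called. The windows are the 250 bases before the annotated start in RefSeq on GRCm38.p6, given 5′ to 3′ along the gene. Capitals mark GAGGAAG, a purine-rich core like that bound by PU.1, or its reverse complement, since both strands were searched.
Itgam, chr7:128062390-128062639, plus strand: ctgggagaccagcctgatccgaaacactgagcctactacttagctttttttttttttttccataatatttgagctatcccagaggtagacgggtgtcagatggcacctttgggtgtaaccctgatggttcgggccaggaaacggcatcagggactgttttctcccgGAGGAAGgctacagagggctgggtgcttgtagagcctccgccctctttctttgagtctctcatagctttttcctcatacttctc
Laptm5, chr4:130913066-130913315, plus strand: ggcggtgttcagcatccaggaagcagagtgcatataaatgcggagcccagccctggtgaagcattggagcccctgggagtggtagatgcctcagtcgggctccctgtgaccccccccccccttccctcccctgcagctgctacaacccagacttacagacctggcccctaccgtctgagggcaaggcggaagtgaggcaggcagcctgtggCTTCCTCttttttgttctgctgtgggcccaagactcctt
Fcgr3, chr1:171059404-171059653, minus strand: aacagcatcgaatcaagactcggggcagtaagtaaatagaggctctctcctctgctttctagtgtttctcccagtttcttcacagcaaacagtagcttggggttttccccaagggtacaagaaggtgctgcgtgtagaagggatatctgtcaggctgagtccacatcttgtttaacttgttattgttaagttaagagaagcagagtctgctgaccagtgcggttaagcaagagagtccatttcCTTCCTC
Trem2, chr17:48346151-48346400, plus strand: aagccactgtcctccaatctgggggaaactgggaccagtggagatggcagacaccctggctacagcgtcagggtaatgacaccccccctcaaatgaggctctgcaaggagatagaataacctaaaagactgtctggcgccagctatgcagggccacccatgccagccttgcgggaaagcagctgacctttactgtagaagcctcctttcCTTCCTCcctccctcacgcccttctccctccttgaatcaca

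Promoter windows were at hand for 21 of the 31 genes. GAGGAAG lay in the window of 5 of them, C1qc, Fcgr3, Itgam, Laptm5 and Trem2, which is 23.8%, against 3244 of all 27025 genes with a window. Its first base stood 84 bases before the start in Itgam, 39 in Laptm5, 7 in the Fcgr3 window shown and 41 in Trem2. GAAA followed after any 2 bases by GAAA, a spacing known from interferon-responsive genes, was found in Aif1 and Ctss, or 9.52% of the 21 genes against 3.46% of all genes. GGAA followed after any 2 bases by GAAA, a joint site known for PU.1 with interferon regulatory factors, was in 0 of the 21 against 2.68% of all genes. A match describes letters in the window and is no evidence of binding.

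On the control diet, SAM/P-8 hippocampus had higher levels of 6 microglia markers and lower levels of 3 than SAM/R-1 hippocampus. Lyz2, Ly86, Gpr34, Cd14, Laptm5 and Itgam were higher, and Mpeg1, Fcer1g and Fcgr3 were lower. The share of all 13459 genes called at an adjusted p under 0.05 was 6.17% higher and 6.66% lower. The counts under a normexp background correction, an alternative model of the local background, were 2 higher and 1 lower. That correction called 480 of 29009 probes higher and 962 in either direction. It also adds an offset of 50 to each signal, which by itself shrinks the log2 differences of dim probes. Without the correction, the members' median difference, SAM/P-8 minus SAM/R-1, was 0.12 on the log2 scale, and that of all genes was -0.01. The arrays of the strains did not overlap for 6 members higher and 3 lower, against 19.0% of all genes in either direction. In bulk tissue, fewer cells of a type and less RNA per cell cannot be told apart.

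On the CCH diet, 11 members were higher and 2 lower in SAM/P-8, against 6.13% and 6.52% of all genes. Lyz2, Gpr34, Itgam, Ly86, Tlr4, Ctss, Aif1, Olfml3, Cx3cr1, Laptm5 and C1qc were higher, and Mpeg1 and Fcgr3 were lower. Under normexp only 2 members were higher, with 2 lower, where 396 of 29009 probes were called higher and 840 in either direction. The median difference of the members was 0.17 and that of all genes -0.02. Non-overlapping groups were seen for 10 members higher and 2 lower, with 20.6% of all genes in either direction as background. Between the diets, 27 of 29 members had the same sign, 5 were called higher on both and 2 lower on both. The matching shares of all genes were not worked out, so these counts are not read as a trait of the members. Averaged over the diets, 12 members were higher and 3 lower, against 11.7% and 14.3% of all genes, with a median of 0.14 against -0.02. The normexp correction left 4 higher and 3 lower, where 1084 of 29009 probes were called higher and 2257 in either direction. All 8 arrays of a strain lay apart from all 8 of the other for 4 members higher and 1 lower, against 6.68% of all genes in either direction. Lyz2 is 1 of these 4 and adds no support, for the reason given below. These 3 comparisons share arrays, so the average adds no separate samples.

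**Figure D1:**
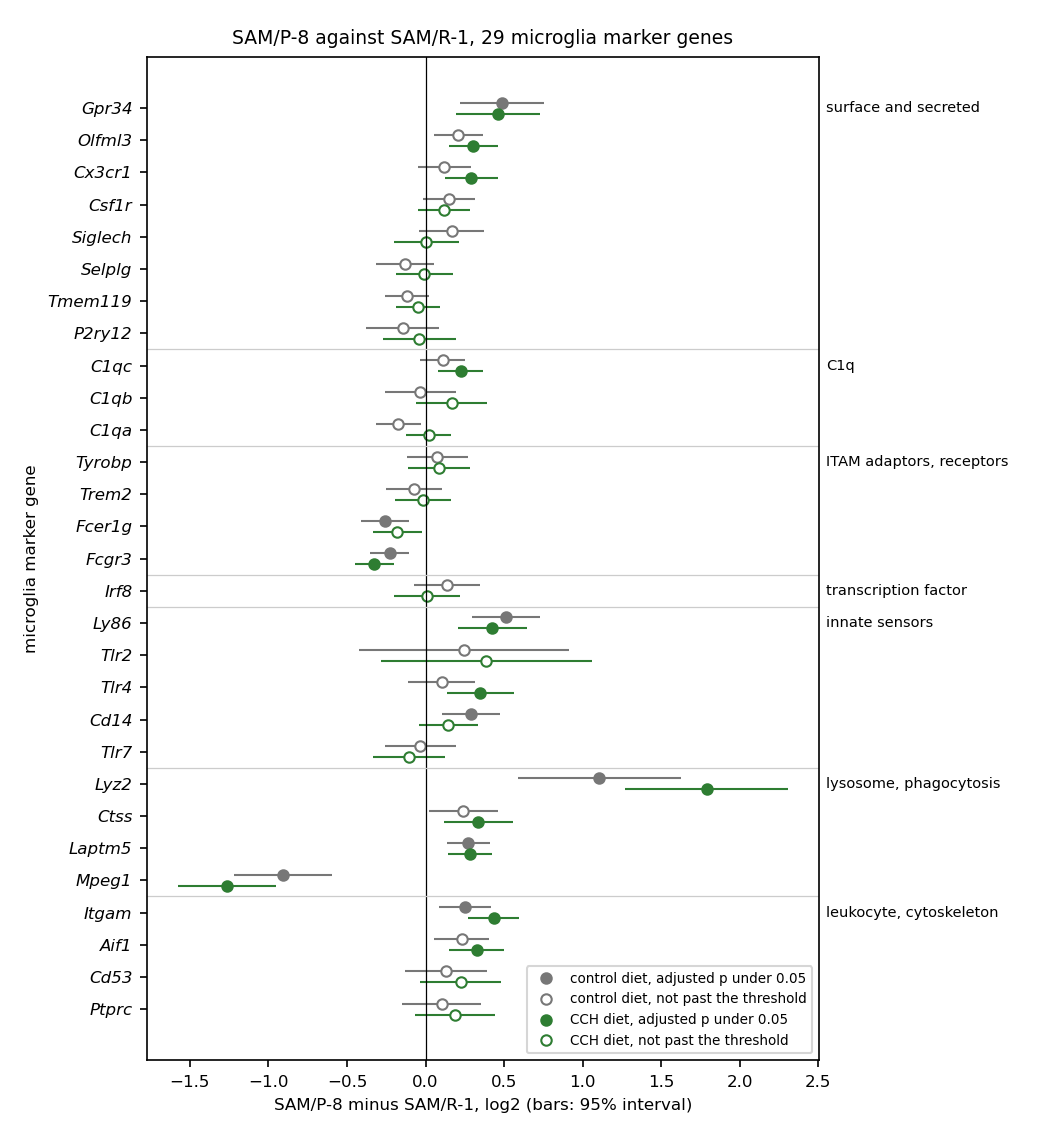
Difference between SAM/P-8 and SAM/R-1 in log2 units (x axis) for the 29 tested microglia marker genes (y axis, grouped by role), on the control diet (grey) and the CCH diet (green), with 95% intervals from the limma fit; filled points passed an adjusted p of 0.05. Mpeg1 lies far to the left (-0.91 and -1.27) and Lyz2 far to the right (1.11 and 1.79 as measured, against SAM/R-1 groups with 0 and 1 of 4 arrays well above background), while most members lie within 0.5 of 0.

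Mpeg1 had the smallest p-value for strain of the 29 genes. It encodes perforin-2, a pore-forming protein of macrophage phagosomes. In the order of replicates 1 to 4, which is used for all values by array, its levels were -1.07, -0.66, -1.18 and -1.32 in SAM/P-8 control, -1.53, -1.37, -1.82 and -1.06 in SAM/P-8 CCH, -0.21, -0.16, -0.15 and -0.08 in SAM/R-1 control, and -0.21, -0.27, -0.11 and -0.12 in SAM/R-1 CCH. Every SAM/P-8 array lay below every SAM/R-1 array, and the SAM/R-1 arrays lay close together while the SAM/P-8 arrays were spread. Mpeg1 was 1.88-fold lower in SAM/P-8 on the control diet (log2 difference -0.91 ± 0.15 SE, adjusted p = 0.000555) and 2.41-fold lower on the CCH diet (-1.27 ± 0.15, adjusted p = 2.52e-05). A second Mpeg1 probe, well above background on 9 of 16 arrays, gave -1.05 (adjusted p = 0.005) and -0.67 (adjusted p = 0.057). With a mean level of -5.78 it lay near background, so it adds no support to the difference of the brightest probe.

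Lyz2, the macrophage lysozyme that cuts bacterial cell walls, was brighter in SAM/P-8, near the limit of detection. Its levels were -5.04, -5.34, -5.33 and -5.92 in SAM/P-8 control, -4.51, -5.36, -5.07 and -4.66 in SAM/P-8 CCH, -6.26, -6.06, -7.11 and -6.65 in SAM/R-1 control, and -6.97, -6.48, -6.51 and -6.80 in SAM/R-1 CCH. The strains did not overlap, but Lyz2 passed the background criterion on 7 of 8 SAM/P-8 arrays and on 1 of 8 from SAM/R-1. On the control diet, 0 of 4 SAM/R-1 arrays and 3 of 4 SAM/P-8 arrays measured it. By the lowest signal well above background on the SAM/R-1 arrays, SAM/P-8 exceeded SAM/R-1 1.54-fold (adjusted p = 0.00651 for the measured values). That fold is no strict lower bound, because not every SAM/P-8 control array passed the background criterion. Lyz2 passed the filter through SAM/P-8 CCH alone, the group where it was highest. Its calls and its lack of overlap, on either diet or on average, therefore add no support to the member counts. With a normexp background correction the Lyz2 difference averaged over the diets shrank from 1.45 to 0.14 (adjusted p = 0.784). The offset of 50 in that correction by itself shrinks differences between such dim values. That fit is therefore no independent check, and the size of the Lyz2 difference is not settled.

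Of the genes of the lysosome and phagocytosis, Laptm5, a lysosomal membrane protein of blood-derived cells, was higher in SAM/P-8 on both diets. Laptm5 levels were -0.36, -0.35, -0.36 and -0.29 in SAM/P-8 control, -0.30, -0.46, -0.25 and -0.22 in SAM/P-8 CCH, -0.63, -0.55, -0.74 and -0.52 in SAM/R-1 control, and -0.48, -0.65, -0.55 and -0.67 in SAM/R-1 CCH. All SAM/P-8 arrays were above all SAM/R-1 arrays, with the nearest pair on the CCH diet. The difference was 0.27 ± 0.07 on the control diet (1.21-fold, adjusted p = 0.0111) and 0.28 ± 0.07 on the CCH diet (1.22-fold, adjusted p = 0.0101). The second probe gave 0.16 and 0.26 and passed the threshold only in the average (0.21, adjusted p = 0.019).

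Ctss, the cysteine protease cathepsin S, had levels of 3.22, 3.78, 3.42 and 3.48 in SAM/P-8 control, 3.37, 3.49, 3.34 and 3.63 in SAM/P-8 CCH, 3.24, 3.17, 3.17 and 3.35 in SAM/R-1 control, and 3.03, 3.21, 3.23 and 3.02 in SAM/R-1 CCH. The groups overlapped on the control diet and were apart on the CCH diet. Ctss was 1.26-fold higher in SAM/P-8 on the CCH diet (0.34 ± 0.10, adjusted p = 0.0431), and its control-diet difference of 0.24 did not pass (adjusted p = 0.142). Leaving out any of 12 of the 16 arrays ended the CCH-diet call, although the average over the diets (0.29 ± 0.07, adjusted p = 0.00908) passed in all 16 such fits.

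**Figure D2:**
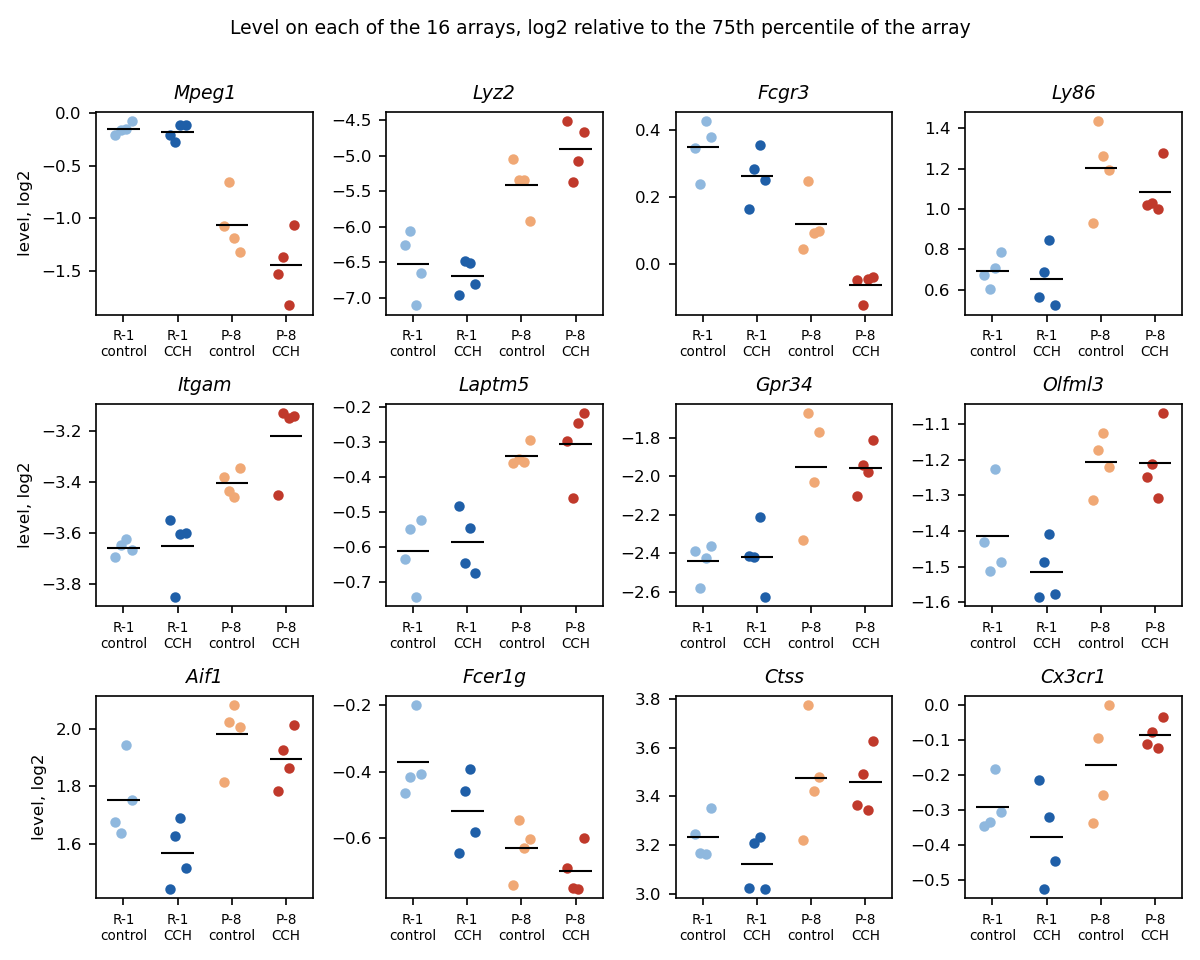
Level on each of the 16 arrays (y axis, log2 relative to the 75th percentile of the array, scaled separately per panel) for the 12 members past the threshold most often, by group (x axis); points are arrays and lines are group means. Mpeg1, Fcgr3 and Fcer1g are lower in SAM/P-8 and the other 9 genes higher, with no overlap between the strains for Mpeg1, Lyz2, Ly86, Itgam and Laptm5.

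Among innate sensors, Ly86 (MD-1, the secreted partner of the Toll-like protein CD180) was higher in SAM/P-8. Ly86 levels were 0.93, 1.43, 1.26 and 1.20 in SAM/P-8 control, 1.02, 1.03, 1.00 and 1.28 in SAM/P-8 CCH, 0.67, 0.60, 0.71 and 0.79 in SAM/R-1 control, and 0.56, 0.69, 0.85 and 0.52 in SAM/R-1 CCH. No SAM/P-8 array reached down to the SAM/R-1 arrays. The gene was 1.42-fold higher on the control diet (0.51 ± 0.10, adjusted p = 0.00318) and 1.34-fold higher on the CCH diet (0.43 ± 0.10, adjusted p = 0.0123).

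Cd14, the receptor that hands lipopolysaccharide to TLR4, was higher in SAM/P-8 on the control diet by 0.29 ± 0.09 (1.22-fold, adjusted p = 0.0399), with all 4 SAM/P-8 control arrays (-1.72 to -1.50) above the SAM/R-1 control arrays (-1.98 to -1.86). This call passed in 8 of 16 fits that left out 1 array. Tlr4 itself was higher by 0.35 ± 0.10 on the CCH diet (1.27-fold, adjusted p = 0.0309), where its levels of -4.63 to -4.20 overlapped those of SAM/R-1 at -4.82 to -4.60. With the normexp correction the Tlr4 difference turned to -0.13 on the CCH diet and to -0.067 on average, so its direction depends on how background is handled.

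Neither the lipoprotein receptor Tlr2 nor the RNA sensor Tlr7 passed the threshold in any comparison. Tlr2 was the member that varied most within groups: its levels were -1.85, -1.33, -1.62 and -2.67 in SAM/P-8 control, -1.98, -2.0, -2.87 and -1.79 in SAM/P-8 CCH, -1.91, -1.70, -2.15 and -2.69 in SAM/R-1 control, and -2.22, -2.95, -2.88 and -2.15 in SAM/R-1 CCH. The 5 arrays at -2.67 or below were those with low choroid plexus markers, and the other 11 arrays were at -2.22 or above. The part of these markers in the Tlr2 level was not tested.

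Of the Fc receptor and ITAM adaptor genes, 2 were lower in SAM/P-8 and the others were not called. Fcgr3, the low-affinity Fc receptor that binds immune complexes, had levels of 0.04, 0.25, 0.09 and 0.10 in SAM/P-8 control, -0.05, -0.12, -0.04 and -0.04 in SAM/P-8 CCH, 0.35, 0.24, 0.43 and 0.38 in SAM/R-1 control, and 0.16, 0.28, 0.35 and 0.25 in SAM/R-1 CCH. One SAM/P-8 control array overlapped the lowest SAM/R-1 control array, and the CCH groups were apart. Fcgr3 was 1.17-fold lower in SAM/P-8 on the control diet (-0.23 ± 0.06, adjusted p = 0.0165) and 1.26-fold lower on the CCH diet (-0.33 ± 0.06, adjusted p = 0.00144). The second, dimmer Fcgr3 probe showed no such difference (-0.07 and 0.03, adjusted p = 0.672 and 0.831). With both probes averaged, the difference fell to -0.15 on each diet and was called in neither, though it passed when averaged over the diets (adjusted p = 0.0381).

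Fcer1g, the ITAM-bearing gamma chain that Fc receptors need to reach the surface, had levels of -0.74, -0.54, -0.63 and -0.60 in SAM/P-8 control, -0.69, -0.75, -0.75 and -0.60 in SAM/P-8 CCH, -0.47, -0.42, -0.20 and -0.41 in SAM/R-1 control, and -0.65, -0.46, -0.39 and -0.58 in SAM/R-1 CCH. The control groups lay apart, and the CCH groups overlapped. The difference was -0.26 ± 0.07 on the control diet (1.19-fold lower, adjusted p = 0.0273), and -0.18 on the CCH diet did not pass (adjusted p = 0.117). Tyrobp, the other adaptor, and its partner receptor Trem2, which binds lipids, differed by 0.08 (95% interval -0.06 to 0.22) and -0.05 (-0.17 to 0.08) on average and were not called.

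Of the leukocyte adhesion and cytoskeleton genes, Itgam (CD11b, the alpha chain of complement receptor 3) had levels of -3.38, -3.44, -3.46 and -3.35 in SAM/P-8 control, -3.45, -3.13, -3.15 and -3.14 in SAM/P-8 CCH, -3.69, -3.65, -3.62 and -3.67 in SAM/R-1 control, and -3.55, -3.85, -3.60 and -3.60 in SAM/R-1 CCH. All SAM/P-8 arrays were above all SAM/R-1 arrays. Itgam was 1.19-fold higher in SAM/P-8 on the control diet (0.25 ± 0.08, adjusted p = 0.0413) and 1.35-fold higher on the CCH diet (0.43 ± 0.08, adjusted p = 0.00148). The control-diet call passed in 6 of 16 fits that left out 1 array. The second Itgam probe gave larger differences of 0.71 and 0.68, both called. With the normexp correction the brightest probe gave 0.084 and -0.023, neither called, so the call on that probe rests on how background is handled.

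Aif1 (IBA1), the actin-bundling protein used to stain microglia, had levels of 1.81, 2.02, 2.08 and 2.01 in SAM/P-8 control, 1.78, 1.93, 1.86 and 2.01 in SAM/P-8 CCH, 1.68, 1.64, 1.94 and 1.75 in SAM/R-1 control, and 1.44, 1.63, 1.69 and 1.52 in SAM/R-1 CCH. The control groups overlapped at SAM/R-1 replicate 3, and the CCH groups did not. Aif1 was 1.25-fold higher on the CCH diet (0.33 ± 0.08, adjusted p = 0.0161), a call kept in all 23 alternative fits, and its control-diet difference was 0.23 (adjusted p = 0.0800). The leukocyte membrane proteins Cd53 and Ptprc (CD45) differed by 0.18 (95% interval -0.01 to 0.36) and 0.14 (-0.04 to 0.32) on average and did not pass.

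Gpr34, a receptor for lysophosphatidylserine, had levels of -2.33, -1.67, -2.03 and -1.77 in SAM/P-8 control, -2.10, -1.94, -1.98 and -1.81 in SAM/P-8 CCH, -2.39, -2.58, -2.42 and -2.36 in SAM/R-1 control, and -2.41, -2.42, -2.21 and -2.63 in SAM/R-1 CCH. Within each diet the strains were apart. The difference was 0.49 ± 0.13 on the control diet (1.40-fold, adjusted p = 0.0171) and 0.46 ± 0.13 on the CCH diet (1.38-fold, adjusted p = 0.0257). Neither passed with the normexp correction, at 0.34 (adjusted p = 0.467) and 0.21 (adjusted p = 0.700). Olfml3, a secreted olfactomedin protein typical of microglia, had levels of -1.31, -1.17, -1.12 and -1.22 in SAM/P-8 control, -1.25, -1.21, -1.31 and -1.07 in SAM/P-8 CCH, -1.43, -1.51, -1.23 and -1.49 in SAM/R-1 control, and -1.59, -1.49, -1.41 and -1.58 in SAM/R-1 CCH. Only the CCH groups were fully apart. Olfml3 was 1.24-fold higher there (0.30 ± 0.07, adjusted p = 0.0124), and 0.21 on the control diet did not pass (adjusted p = 0.0759).

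Cx3cr1, the fractalkine receptor, had levels of -0.34, -0.09, -0.26 and 0.00 in SAM/P-8 control, -0.11, -0.08, -0.12 and -0.03 in SAM/P-8 CCH, -0.35, -0.33, -0.18 and -0.30 in SAM/R-1 control, and -0.21, -0.53, -0.32 and -0.44 in SAM/R-1 CCH. The SAM/P-8 CCH arrays were tightly placed above all SAM/R-1 CCH arrays, and the control groups overlapped. Cx3cr1 was 1.22-fold higher on the CCH diet (0.29 ± 0.08, adjusted p = 0.0255), against 0.12 on the control diet (adjusted p = 0.355). Its second, dim probe gave differences of 0.18 and 0.21 and was not called.

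The other surface genes did not pass. On average over the diets, P2ry12 differed by -0.09 (95% interval -0.26 to 0.07), Tmem119 by -0.08 (-0.18 to 0.02), Siglech, a sialic acid receptor, by 0.09 (-0.06 to 0.23) and Selplg, a selectin ligand, by -0.07 (-0.20 to 0.06). These intervals leave room for differences of up to about 0.26 in size. Csf1r was nearest to a call, with 0.13 (0.02 to 0.25, adjusted p = 0.0860).

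Of the 3 chains of complement C1q, 1 was called. C1qc was 1.17-fold higher in SAM/P-8 on the CCH diet (0.22 ± 0.07, adjusted p = 0.0386), with levels of 1.24 to 1.43 just clear of the 0.99 to 1.24 of SAM/R-1. That call passed in 9 of 16 fits that left out 1 array. C1qa on the control diet went the other way, at 1.02 to 1.19 in SAM/P-8 below 1.20 to 1.41 in SAM/R-1, but did not pass (-0.17, adjusted p = 0.106). C1qb differed by 0.07 on average (95% interval -0.09 to 0.23). Irf8, a transcription factor that myeloid cells require, differed by 0.07 on average (-0.08 to 0.22).

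Several counts rest on single arrays. On the control diet the number of members called higher went from 6 to 3 without SAM/P-8 control replicate 2 or without SAM/R-1 control replicate 2, and the number lower went from 3 to 1 without SAM/R-1 control replicate 3. Over all probes, the control-diet calls also fell, from 4004 to 3317, 3276 and 2973 in that order. On the CCH diet the number higher went from 11 to 6 when SAM/P-8 CCH replicate 4 was left out, the array with high striatal markers, and likewise without SAM/R-1 CCH replicate 2 or 4. The CCH-diet calls over all probes fell from 3909 to 3286, 3061 and 2872, so the drop was not confined to the members. Gpr34, Ctss, Cx3cr1, C1qc and Tlr4 were the calls lost in each of these 3 fits. Averaged over the diets, 11 to 13 members were higher and 3 lower whichever array was left out. With the normexp correction, Gpr34 (0.28), Olfml3 (0.20), Cx3cr1 (0.17), C1qc (0.17) and Cd14 (0.12) also lost the call averaged over the diets.

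The same arrays were often the highest or lowest of their group across members. SAM/P-8 control replicate 2 had the highest level of its group for 18 of 29 members and replicate 1 the lowest for 19. SAM/P-8 CCH replicate 4 was highest for 20, SAM/R-1 CCH replicate 3 for 19 and SAM/R-1 control replicate 3 for 16. What these arrays share was not tested.

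CCH feeding changed no member past the threshold in either strain. Of 29 members, 0 were called higher and 0 lower in SAM/P-8, where 0.416% and 0.371% of all genes were called. There 5 members had an unadjusted p under 0.05, against 18.5% of all genes. In SAM/R-1 the counts were again 0 and 0, against 0.00743% and 0.0966% of all genes. An unadjusted p under 0.05 was seen for 2 members, against 11.2% of all genes. The median difference, CCH minus control, was -0.02 in SAM/P-8 and -0.09 in SAM/R-1, and that of all genes was -0.02 in each. Single differences lay between -0.39 and 0.51 in the former strain and between -0.44 and 0.066 in the latter. Groups that did not overlap were seen for 1 member in SAM/P-8 (Fcgr3), against 9.66% of all genes, and for 1 in SAM/R-1 (Cd14), against 9.9%.

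The smallest adjusted p-values in SAM/P-8 were those of Fcgr3 and Cd14. Fcgr3 differed by -0.18 ± 0.06 (adjusted p = 0.120), and every SAM/P-8 CCH array (-0.12 to -0.04) was below every SAM/P-8 control array (0.04 to 0.25). Cd14 differed by -0.28 ± 0.09 (adjusted p = 0.121), from -1.72 to -1.50 on control arrays to -2.10 to -1.69 on CCH arrays, with overlap. In SAM/R-1 the smallest were Aif1 at -0.18 ± 0.08 (adjusted p = 0.436) and C1qb at -0.23 ± 0.11 (adjusted p = 0.449). None of these differences passed the adjustment.

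**Figure D3:**
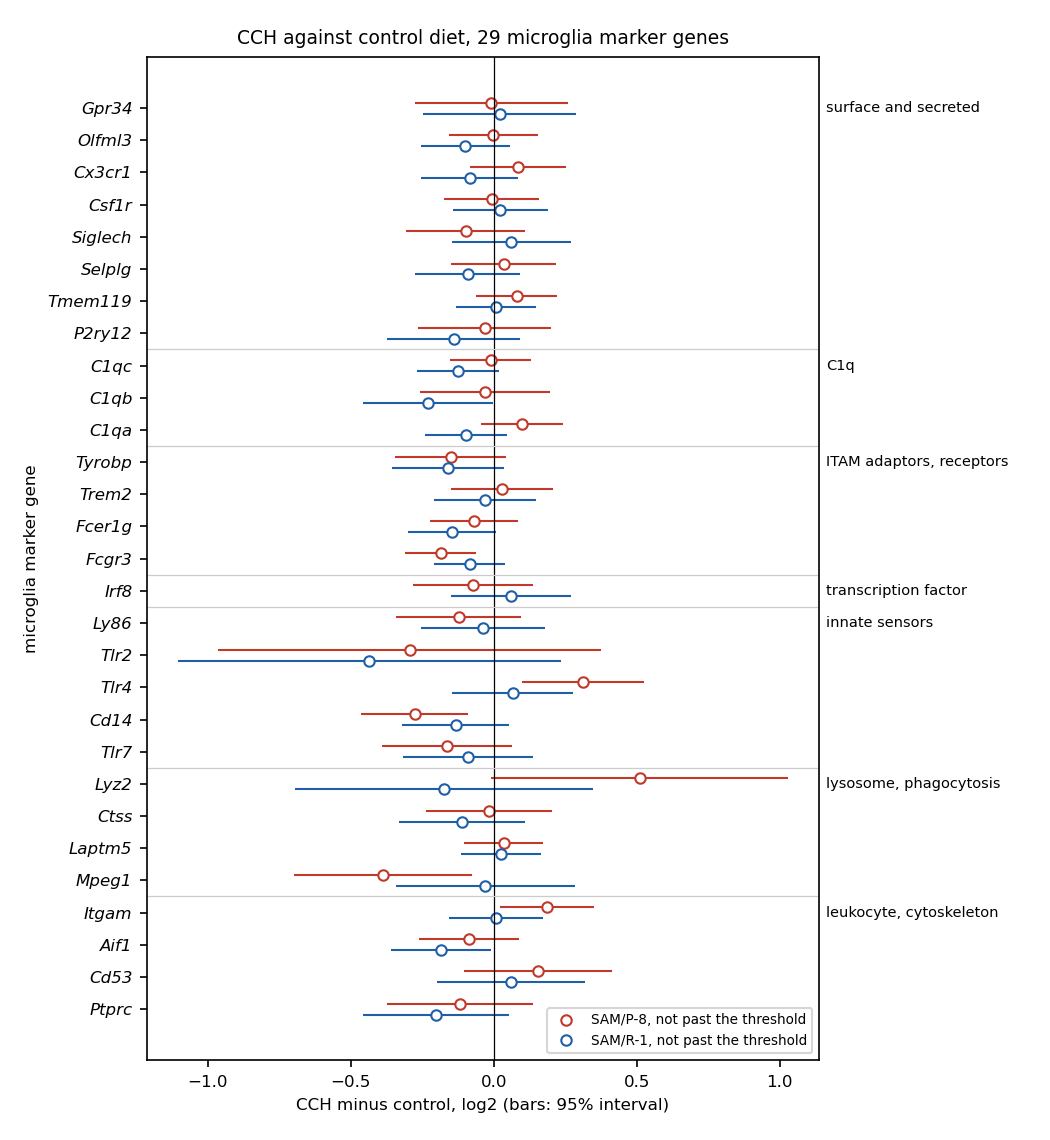
Difference of CCH minus control diet in log2 units (x axis) for the 29 tested microglia marker genes (y axis, grouped by role), in SAM/P-8 (red) and SAM/R-1 (blue), with 95% intervals from the limma fit; open points did not pass an adjusted p of 0.05. No point is filled; the widest intervals belong to Tlr2 and Lyz2.

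Averaged over the strains, 0 members were called higher and 0 lower, against 1.58% and 2.58% of all genes. An unadjusted p under 0.05 was seen for 5 members, against 24.3% of all genes. Cd14 (-0.20 ± 0.06, adjusted p = 0.0725) and Fcgr3 (-0.13 ± 0.04, adjusted p = 0.0748) were nearest, and 0 members had non-overlapping groups, against 0.371% of all genes. A second, dimmer Aif1 probe did pass, at -0.19 (adjusted p = 0.0474, where 4.16% of all probes passed), while the brightest Aif1 probe gave -0.13 (adjusted p = 0.177). Cd14 passed once SAM/P-8 CCH replicate 1 was left out (-0.24, adjusted p = 0.0497). Leaving out SAM/P-8 control replicate 1 made Fcgr3 (-0.15, adjusted p = 0.0497) and Tlr4 (0.23, adjusted p = 0.0499) pass. For the strain by diet interaction, 0 members were called, against 0.119% and 0.0149% of all genes. An unadjusted p under 0.05 was seen for 0 members, against 4.80% of all genes. The smallest adjusted p was 0.913, for C1qa, so a strain difference called on 1 diet and not on the other is not shown to differ between diets.

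Genes that act with the members were read from lists of their pathways, averaged over the diets and given as SAM/P-8 minus SAM/R-1. Each list's counts stand against 11.7% of all genes higher and 14.3% lower. For signalling below ITAM receptors, 4 of 12 tested genes were higher and 0 lower, with a median of 0.14 against -0.02 for all genes. Pirb, an inhibitory receptor of myeloid cells, was up 2.56-fold (adjusted p = 2.16e-05), and the adaptor Blnk (1.23-fold) and the kinase Lyn (1.18-fold) were higher too. In Toll-like receptor signalling, 3 of 13 were higher and 0 lower, with a median of 0.03. These were the adaptor Tirap, 1.63-fold higher (adjusted p = 4.18e-06), the kinase Irak2 (1.36-fold) and the adaptor Myd88 (1.17-fold).

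Of 12 other complement genes tested, 6 were higher and 2 lower, with a median of 0.28. Itgax (CD11c, the alpha chain of complement receptor 4) passed the background criterion on 0 of 4 SAM/R-1 control arrays and on all 4 SAM/P-8 control arrays, a difference of at least 2.33-fold (adjusted p = 2.21e-05 for the measured values). Itgax passed the filter only through SAM/P-8, where it was higher, so its call adds no support to the count. The inhibitor Serping1 was 1.57-fold higher, and C2, a protease of the classical pathway, was 1.73-fold lower. Among ligands of CSF1R and CX3CR1 and the cytokine Tgfb1, 0 of 4 were higher and 1 lower. This was Csf1, 1.13-fold lower (adjusted p = 0.0105).

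A further list of 26 microglia genes had 4 higher and 3 lower, close to the shares of all genes (11.7% and 14.3%), and a median of 0.00. Slc2a5, the fructose transporter GLUT5, had the largest difference of that list: its levels were 0.44 to 0.74 in SAM/P-8 control, 0.52 to 0.74 in SAM/P-8 CCH, -1.72 to -1.22 in SAM/R-1 control and -1.87 to -1.31 in SAM/R-1 CCH. The strain ratio was 4.44-fold (2.15 ± 0.09, adjusted p = 1.47e-10), and the strains did not overlap. The ectonucleotidase Entpd1 (1.31-fold) and the receptor Tgfbr2 (1.22-fold) were higher, and Rnase4, a secreted ribonuclease, was 1.29-fold lower. In the same list P2ry6, a nucleotide receptor for phagocytosis, was lower with CCH in SAM/P-8 (-0.37 ± 0.08, adjusted p = 0.0407), at -0.80 to -0.58 against -0.46 to -0.13. That call was lost with the normexp correction (-0.35, adjusted p = 0.240).

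Of 18 genes known to rise in activated microglia, 2 were higher and 3 lower, again close to 11.7% and 14.3% of all genes, with a median of 0.05. The glycoprotein Gpnmb was 1.56-fold higher, and the chemokine Ccl6 (1.36-fold), the protease inhibitor Cst7 (1.37-fold) and the lipid carrier Apoe (1.13-fold) were lower, Cst7 being well above background on 2 of 8 SAM/P-8 arrays. Cst7 passed the filter only through SAM/R-1, where it was higher, so its call adds no support to the count of lower genes. Of 10 tested cytokine and inflammasome genes, 2 were higher and 1 lower. Cxcl10 and Ccl12, chemokines induced by interferon and by inflammation, were 2.81-fold and 2.10-fold higher, and the inflammasome adaptor Pycard was 1.48-fold lower (adjusted p = 5.97e-05).

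Markers of other cells that share some of the 31 genes were higher in SAM/P-8 too, read against the same 11.7% and 14.3% of all genes. For border macrophages, 8 of 10 tested markers were higher and 0 lower, with a median of 0.67. The mean score of these 10 genes ran from -0.21 to 0.98 in SAM/P-8 control, 0.08 to 0.77 in SAM/P-8 CCH, -0.74 to 0.14 in SAM/R-1 control and -0.67 to -0.20 in SAM/R-1 CCH. F13a1 (2.40-fold), Cd163 (1.93-fold), Cbr2 (1.74-fold) and Lyve1 (2.59-fold, measured on 4 of 8 SAM/R-1 arrays) led this list. Lyve1 passed the filter only through SAM/P-8, where it was higher, so it adds no support to this count or score. For monocytes and granulocytes, 4 of 5 tested markers were higher, namely Plac8 (at least 3.92-fold, with no SAM/R-1 array of 8 past the background criterion), S100a9 (4.01-fold), Ly6c2 (1.39-fold) and Csf3r (1.26-fold). The score of these 5 was 0.39 to 1.09 in SAM/P-8 control and 0.24 to 0.43 in SAM/P-8 CCH, above the -0.70 to -0.17 and -1.09 to -0.30 of SAM/R-1. Plac8 passed the filter only through SAM/P-8, where it was higher, so it adds no support to this count or score. The other 8 genes of that list, among them Ccr2, S100a8 and Cxcr2, had no probe that was named and kept. The part of these cells in the differences of Lyz2, Itgam, Cd14 and the other shared genes was not tested.

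**Figure D4:**
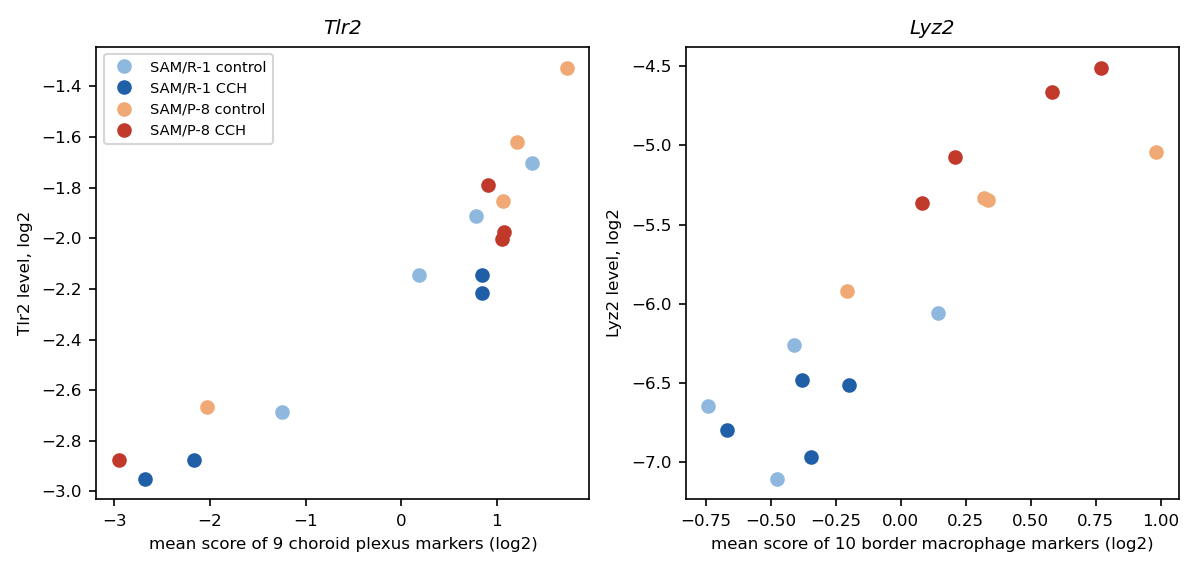
Left, Tlr2 level against the mean score of 9 choroid plexus markers, and right, Lyz2 level against the mean score of 10 border macrophage markers (both axes log2), with 1 point per array coloured by group. The 5 arrays with low choroid plexus scores have the lowest Tlr2 levels, from -2.95 to -2.67, and the 8 SAM/P-8 arrays have the higher Lyz2 levels, from -5.92 to -4.51.

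Among lymphocyte markers 1 of 12 could be tested, Cd3e, which was lower in SAM/P-8 (-0.62, adjusted p = 0.0123), and the other 11 had no probe that was named and kept. The Cd3e difference was -1.05 on the control diet (adjusted p = 0.00655) and -0.18 on the CCH diet (adjusted p = 0.646). Relative to its mean over all arrays, Cd3e was at 0.74 to 1.10 in SAM/R-1 control and at most 0.64 in the other groups. Markers of vessels (11 of 12 higher, 0 lower, median 0.56, with Rgs5 at 0.81 and Pdgfrb at 0.61) and meninges (7 of 10 higher, 0 lower, median 0.64, led by Col3a1 at 1.04, Slc6a13 at 0.84, Col1a2 at 0.83 and Foxc1 at 0.67) were higher as well. The vessel count includes Abcb1a, which passed the filter only through SAM/P-8, where it was higher, so that call adds no support. Of 14 neuron markers, Snap25 was higher (0.25) and Camk2a (-0.29) and Tubb3 (-0.15) lower, with a median of -0.06. Of 10 astrocyte markers, Gfap (0.41) and Gjb6 (0.32) were higher, with a median of 0.01, and of 12 oligodendrocyte markers, Olig1 (0.53) and Olig2 (0.37) were higher and Mbp lower (-0.28), with a median of -0.05. None of 9 choroid plexus, 10 striatal and 3 red cell markers was called. Nearest were Kl (0.70, adjusted p = 0.346) and Enpp2 (0.55, adjusted p = 0.547), Adcy5 (0.54, adjusted p = 0.195) and Pde10a (0.45, adjusted p = 0.377), and Hba-a1 (0.88, adjusted p = 0.0621) and Alas2 (0.94, adjusted p = 0.0669). With CCH, averaged over the strains, 2 of 14 neuron markers (Zbtb20 at -0.25 and Camk2a at -0.23) and 1 of 3 red cell markers (Slc4a1 at -1.43) were lower. The share of all genes called lower in that comparison was 2.58%. These 3 calls were lost with the normexp correction, and the red cell score was high only on SAM/P-8 control replicates 1 and 2.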

How the data were processed

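Per the file headers, the deposited processed signal of each spot is an intensity, background-subtracted by the scanner software, Agilent Feature Extraction 9.5.3.1. The deposited median signal and local background are likewise an intensity per the file headers. Scanner flags for spots well above background, non-uniform or saturated are of another kind, per the file headers. The authors' deposited table is on a log2 scale, centred per probe, with column medians from -0.04 to 0.04. It correlated with the centred scanner values at 0.9999 or more on each array, which settled scale, centring and direction.

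Processed signals were taken as log2 minus the array's 75th percentile over non-control probes. Spots of a probe were averaged and 187 non-uniform spots left out. Of 41174 probes, 29009 passed the scanner's background criterion on the 4 arrays of 1 group or more and were kept. Probes were named by RefSeq accession (24844 named, 16330 not). limma 3.58.1 in R 4.3.3 fitted 1 mean per group (12 residual degrees of freedom, prior 2.32), with Benjamini-Hochberg adjustment over 29009 probes and a threshold of 0.05. Where 0 arrays of a group passed that criterion, the fold is a bound taken from the dimmest passing signal of each such array. It is strict only where all arrays of the brighter group passed. Replicates correlated at 0.987 to 0.997, and precision is limited by the array number. The fit was tested on simulated data. Every member was named, with values by array for the 12 past the threshold most often (ties by smallest p). Of each other list the rule names up to 4 called genes by size of difference, otherwise the 2 of lowest p. Some genes that this rule picks are not reported here. Alternatives changed background correction, normalization, filter, probe choice and replicates. The members and lists were chosen with earlier results of these data known.

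Same-numbered replicates of different groups deviated together (r over 0.1) in 6 of 24 pairs, with r from -0.25 to 0.30.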

Additional observations from a re-analysis of the deposited data

Results flagged for a closer look

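Each tested member, and the members' mean score, was checked in each group of 4 arrays for a single distant array by Dixon's criterion. Of these 120 sets 7 were marked, and chance marks about 1 in 20. Itgam was low on SAM/P-8 CCH replicate 1 (-3.45, others -3.15 to -3.13). Ly86 was high on SAM/P-8 CCH replicate 4 (1.28, others 1.00 to 1.03), the array with high striatal markers. Tmem119 was high on SAM/P-8 control replicate 3 (0.50, others 0.36 to 0.37). Fcgr3 was low on SAM/P-8 CCH replicate 2 (-0.12, others -0.05 to -0.04), and Laptm5 was high on SAM/P-8 control replicate 4 (-0.29, others -0.36 to -0.35). Irf8 was high on replicate 3 of both SAM/R-1 groups, at -0.67 on the CCH diet (others -0.85 to -0.82) and at -0.71 on the control diet (others -0.91 to -0.89). No member's strain difference was shown to differ between the diets.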

How the results depend on the processing

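Of 37 calls of members over the 3 strain comparisons, 37 held with the authors' value table and with quantile normalization, 34 of 34 with probes well above background on all 16 arrays, 33 without the filter on dim probes and 33 with the mean of all probes of a gene. With the normexp correction 14 held, 20 were lost and 3 turned: Itgam (-0.023) and Tlr4 (-0.13) on the CCH diet and Tlr4 on average (-0.067). The members called higher under it were 2 on the control diet, 2 on the CCH diet and 4 on average, with 1 lower on the control diet, and the medians were 0.054 on the CCH diet, 0.031 on average and -0.025 for the interaction. On average Ly86, Ctss, Aif1 and Laptm5 stayed higher and Mpeg1, Fcgr3 and Fcer1g lower. The offset of 50 in the normexp correction by itself shrinks differences of dim probes, so calls lost among them are no independent check. With the mean of all probes, 1 member was lower on the CCH diet.

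Over all probes, normexp called 962, 840 and 2257 for the strain comparisons on the control diet, the CCH diet and on average, against 4004, 3909 and 7771, and 12063 were called on average without the filter. For CCH in SAM/P-8, 250 probes were called, with 0 under normexp, 136 under quantile normalization, 152 without the filter and 132 with the replicate block. For CCH in SAM/R-1, 33 were called, with 0 under normexp and 17 with probes measured on all arrays. For the average of CCH, 1206 became 111 under normexp and 3346 without the filter, and for the interaction 50 became 0, 33 under quantile normalization and 17 with probes measured on all arrays.

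Leaving out 1 array at a time gave 3 to 6 members higher and 1 to 3 lower on the control diet (median 0.07 to 0.18), 6 to 11 higher and 2 lower on the CCH diet (0.11 to 0.21), and 11 to 13 higher and 3 lower on average (0.12 to 0.19). Over all probes, these fits called 2973 to 4521 on the control diet, 2821 to 4158 on the CCH diet and 6623 to 7723 on average. For CCH the counts were 0 in SAM/P-8 (median -0.10 to 0.022) and in SAM/R-1 (-0.13 to -0.05), 0 to 1 in each direction on average (-0.07 to -0.01), and 0 for the interaction (0.02 to 0.12).

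For 0 of the samples was the same replicate number the best match in every other group at once. That count is too strict to show whether the numbers pair the samples. With the replicate number as a block, 5 members were higher and 3 lower on the control diet, 10 and 2 on the CCH diet and 12 and 3 on average. The block ended the calls of Itgam (adjusted p = 0.0639) and Cd14 (adjusted p = 0.0569) on the control diet and of C1qc (adjusted p = 0.0524) on the CCH diet. Lyz2 was the member nearest to background, which limits the size of its difference.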

Other observations

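Within the pathway lists, CCH averaged over the strains went with higher Timp2 (0.35 ± 0.08, adjusted p = 0.0326), a protease inhibitor of the activated microglia list, and with lower Ticam1 (-0.25 ± 0.06, adjusted p = 0.0320), the adaptor of TLR3 and TLR4, and higher Rela (0.19 ± 0.05, adjusted p = 0.0483), a subunit of NF-kappa-B. P2ry6 was lower by this average too (-0.27 ± 0.05, adjusted p = 0.0210). Among vessel markers, Abcb1a, a drug efflux transporter of vessel walls, exceeded SAM/R-1 at least 5.54-fold in SAM/P-8 (0 of 8 arrays of SAM/R-1 passed the background criterion), and Ly6a did so 2.72-fold. Among macroglia, Gfap was 1.33-fold and Olig1 1.44-fold higher in SAM/P-8, and Mbp was 1.21-fold lower. Their lists as a whole were mixed: 5 astrocyte markers were up and 5 down, and 5 oligodendrocyte markers up and 7 down, called or not. Cd3e was lower with CCH on average (-0.75 ± 0.16, adjusted p = 0.0288), at -1.18 in SAM/R-1 and -0.31 in SAM/P-8, neither called. The high SAM/R-1 control group enters both this average and the Cd3e strain difference. With the normexp correction these CCH differences did not pass: Timp2 0.31 (adjusted p = 0.0860), Ticam1 -0.069 (0.679), Rela 0.18 (0.101), P2ry6 -0.23 (0.0784) and Cd3e -0.083 (0.807).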
